A study of Mus musculus with 8 samples.

Results

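Glycolysis and hypoxia response genes were followed in retinas of mouse embryos with and without Smo, the membrane protein that carries the Shh signal into the cell. The 33 genes were chosen by symbol as glycolytic enzymes, glucose and lactate transporters and parts of the response to low oxygen, with Vegfa left out. The rule itself uses no measured value, but the members were chosen with earlier results of these data known. All 33 were among the 57180 genes of the count table, and 32 reached 5 counts in 4 or more of the 8 libraries and were tested. The 33rd, Adm, which encodes a vasodilator peptide, had 0 to 0.648 CPM in Rax-SmoCKO and 0 to 0.767 CPM in control libraries. CPM, the unit of level used throughout, are counts scaled to the size of each library.

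RNA came from isolated retinas and was read by 3′-Tag-Seq, in which a transcript gives reads from its 3′ end only, so that no correction for length was made. Comparisons of level between genes remain uncertain, among others where a gene has close copies, as given below for Gapdh and Eno1. In the 4 Rax-SmoCKO libraries both copies of Smo are conditional and the Rax-Cre transgene is present (Rax-Cre; Smo CKO/CKO), and the 4 control libraries have the same Smo alleles with no Cre. Rax-Cre is a BAC transgene that is active from the optic vesicle on, so it acts in the retina, the pigment epithelium, the optic stalk and the ventral hypothalamus. No library carries Rax-Cre with intact Smo. An effect of Cre or of the transgene and loss of Smo therefore cannot be told apart. The mice are on a CD1 background. The study places these retinas at E13.5 and the series' design text at day 13, whereas the sample labels run from day 17 to day 20 in the Rax-SmoCKO and from day 13 to day 16 in the control samples in steps of 1. The age in the study is used here. Whether a library is 1 embryo or a pool is not stated, and the p-values then reflect the spread among these 8 libraries, which may be technical. The purpose of the comparison was to find the expression changes that go with the small, malformed eyes of these mutants.

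Library totals were 3026843 to 4615667 counts in Rax-SmoCKO and 3017480 to 4328567 in control. Summed over Smo and its target Gli1, levels were 3.58 to 9.07 CPM in Rax-SmoCKO and 28.1 to 51.4 CPM in control, as the labels say. All 8 listed markers of retinal progenitors were detected in both groups, with sums of 5009 to 5715 CPM in Rax-SmoCKO and 5123 to 5631 CPM in control. Other cell types were also present. Sums over 14 lens genes were 9.0 to 400.0 CPM in Rax-SmoCKO and 6.39 to 16752 CPM in control, with control replicate 2 at the top. Over 9 erythroid genes they were 913.0 to 3814 CPM in Rax-SmoCKO, with replicate 2 at the top, and 913.0 to 1708 CPM in control. Y-linked genes were seen at 244 and 241 CPM in Rax-SmoCKO replicates 2 and 3 and at no more than 0.256 CPM elsewhere. The first principal component, with 26% of the variance, set control replicate 2 and Rax-SmoCKO replicate 2 apart. In bulk tissue, fewer cells of a type and less RNA per cell cannot be told apart.

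Glycolysis splits glucose into pyruvate. Glucose enters through GLUT transporters, hexokinases trap it, the upper enzymes cut it into smaller sugars, and the lower enzymes harvest ATP. Lactate dehydrogenase then turns pyruvate into lactate, which leaves through monocarboxylate transporters. Dividing progenitors and photoreceptors of the retina are known for making lactate even when oxygen is at hand. The transcription factor HIF1, whose alpha subunit is marked for destruction by oxygen-dependent prolyl hydroxylases, turns on many genes of this pathway by binding short hypoxia response elements. In cerebellar granule neuron progenitors of the mouse, Shh is known to raise the hexokinase gene Hk2.

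The hypoxia response core was searched in promoter windows of RefSeq on GRCm38.p6, each reaching from 250 bases before to 50 bases after a gene's start. The letters searched were ACGTG and GCGTG on both strands. A CACGTG holds ACGTG on each strand and counts as 2 matches. A match was found in 37 of 45 windows of the 32 members in the table (82.2%), in 61.9% of the 13168 windows of all tested genes and in 43.8% of all 32851 windows. ACGTG alone was in 55.6% of the member windows, in 25.2% of those of tested genes and in 19.6% of all windows. Slc2a3 was not matched. Base composition was not matched between these sets, and a match is a description of letters, not a bound site. The members were listed in part as hypoxia response genes, so their share only describes the list. A gene with several windows, such as Pfkm, Aldoa or Eno1, was counted with each of them. The 250 bases before the start are given for 3 genes that the values below turn on, with the matches in capitals.
Pgk1, chrX:106186850-106187099, plus strand, 2 matches: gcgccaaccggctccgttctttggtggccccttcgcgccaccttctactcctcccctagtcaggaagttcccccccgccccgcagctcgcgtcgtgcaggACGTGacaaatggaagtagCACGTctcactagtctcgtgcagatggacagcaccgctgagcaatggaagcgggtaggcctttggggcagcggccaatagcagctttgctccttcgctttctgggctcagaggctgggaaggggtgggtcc
Ldha, chr7:46845554-46845803, plus strand, 5 matches: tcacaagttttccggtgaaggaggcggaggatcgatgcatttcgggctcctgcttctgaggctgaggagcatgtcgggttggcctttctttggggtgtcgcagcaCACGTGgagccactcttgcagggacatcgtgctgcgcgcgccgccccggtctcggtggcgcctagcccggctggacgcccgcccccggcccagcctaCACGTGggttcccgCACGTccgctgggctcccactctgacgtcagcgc
Slc16a1, chr3:104638414-104638663, plus strand, 4 matches: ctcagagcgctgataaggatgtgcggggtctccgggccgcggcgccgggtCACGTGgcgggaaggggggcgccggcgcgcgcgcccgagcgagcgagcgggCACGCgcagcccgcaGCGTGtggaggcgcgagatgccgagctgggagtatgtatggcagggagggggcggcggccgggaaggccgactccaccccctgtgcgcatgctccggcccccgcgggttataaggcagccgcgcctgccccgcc
The Ldha window is the first of the gene's 2 windows in the table.

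None of the 32 tested members passed edgeR's quasi-likelihood test in either direction after Benjamini-Hochberg adjustment over all 14730 genes. The smallest adjusted p was 0.384, for Pgk1. Over all genes 14 passed, or 0.095%, with 5 higher and 9 lower in Rax-SmoCKO retinas. At an unadjusted p under 0.05, 4 members were higher in Rax-SmoCKO (12.5% of 32, against 4.80% of all genes) and 1 was lower (against 4.68%). The 4 were Pgk1, Hif1a, Ldha and Hk1, and the 1 was Slc16a1. Leaving out 1 library changed this count of 5 in most cases. Without control replicate 2 or control replicate 4 the count stayed at 5. It was 2 without control replicate 1 or without Rax-SmoCKO replicate 4, 3 without Rax-SmoCKO replicate 1 or 3, and up to 7, without Rax-SmoCKO replicate 2. DESeq2's Wald test likewise called 0 members, with an adjusted p for all but 9 of them and 4 at an unadjusted p under 0.05. The groups did not overlap in 2 members, Pgk1 and Hif1a, both with Rax-SmoCKO above, which was so for 2.66% of all genes. In 0 members was Rax-SmoCKO wholly below, which was so for 3.03%. Because the members were chosen with earlier results of these data known, these shares and the directions given next only describe the list.

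The log2 fold change of Rax-SmoCKO over control was above 0 in 24 of the 32 members and below 0 in 8, whereas it was above 0 in 49.6% of all tested genes. The median was 0.10 over the members, a fold of 1.07, and -0.0018 over all genes. Summed CPM of the 33 genes were 3272, 3095, 3145 and 3347 in Rax-SmoCKO replicates 1 to 4, against 2894, 2987, 3109 and 2996 in control replicates 1 to 4. The means of 3215 ± 116 and 2996 ± 88.0 CPM (SD, n = 4 each) differ by 7.28%, and the groups overlap, since control replicate 3 lies above Rax-SmoCKO replicate 2. Single libraries weighed on the members. Rax-SmoCKO replicate 4 held the highest value of 11 members, and control replicate 1 the lowest of 10.

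**Figure D1:**
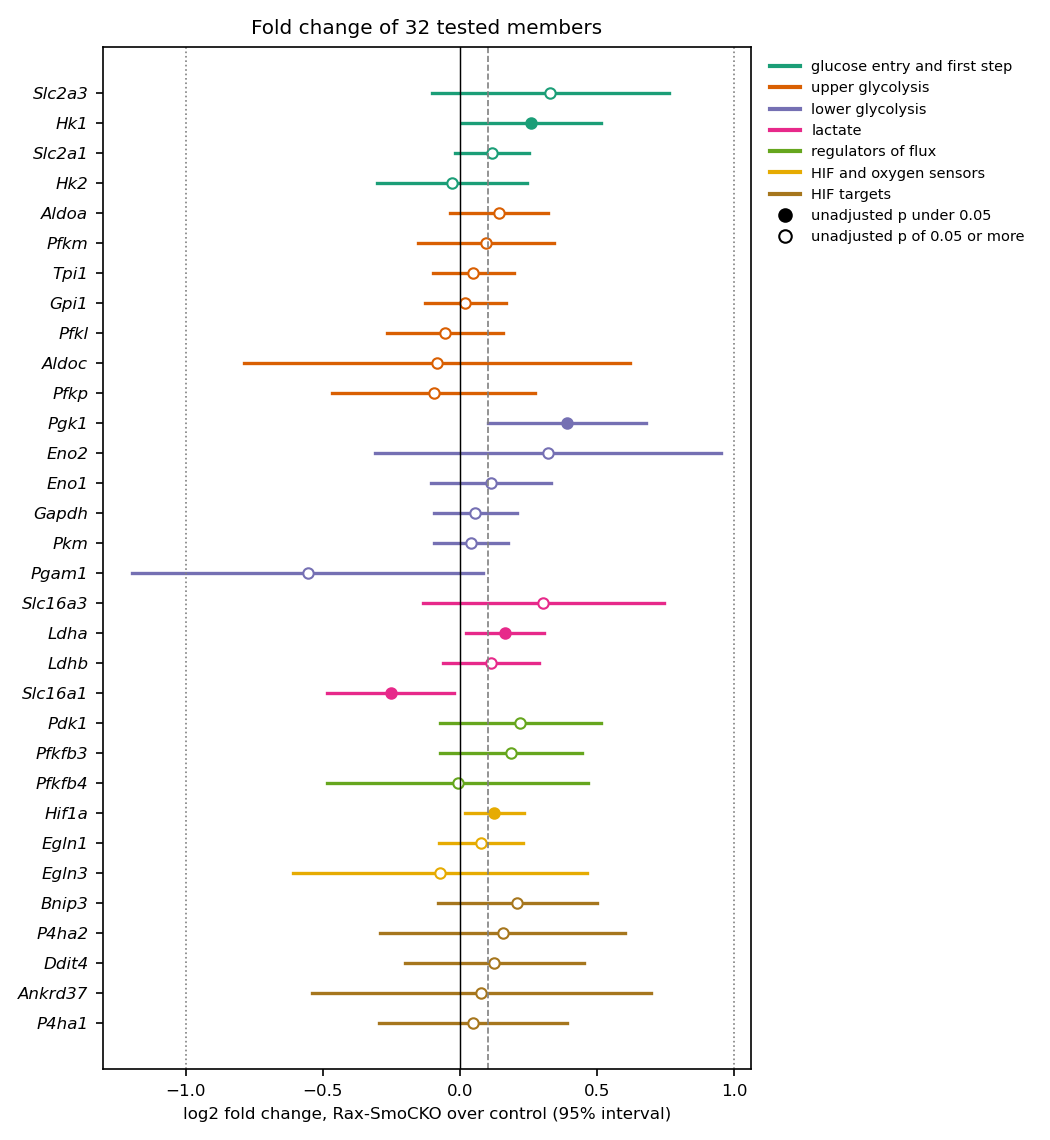
Log2 fold change of Rax-SmoCKO over control for the 32 tested members, ordered by role from glucose entry to HIF targets, with 95% intervals. Filled points have an unadjusted p under 0.05. The dashed line is the members' median of 0.10, the dotted lines mark -1 and 1, and the intervals of 31 of 32 members lie between the dotted lines.

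The intervals show how large a change these libraries leave room for. In 27 of 32 members the 95% interval held 0. In 31 it lay within 1 on the log2 scale to either side of 0, and in 20 within 0.5. The exception to the wider limit was Pgam1, the phosphoglycerate mutase, which had few counts. Members differed widely in level. The highest was Ldha, at 519 CPM in Rax-SmoCKO and 463 CPM in control, and the lowest was Aldoc, at 3.22 CPM in Rax-SmoCKO and 3.34 CPM in control, while 9 members averaged at least 100 CPM in control and 8 averaged under 10 CPM.

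**Figure D2:**
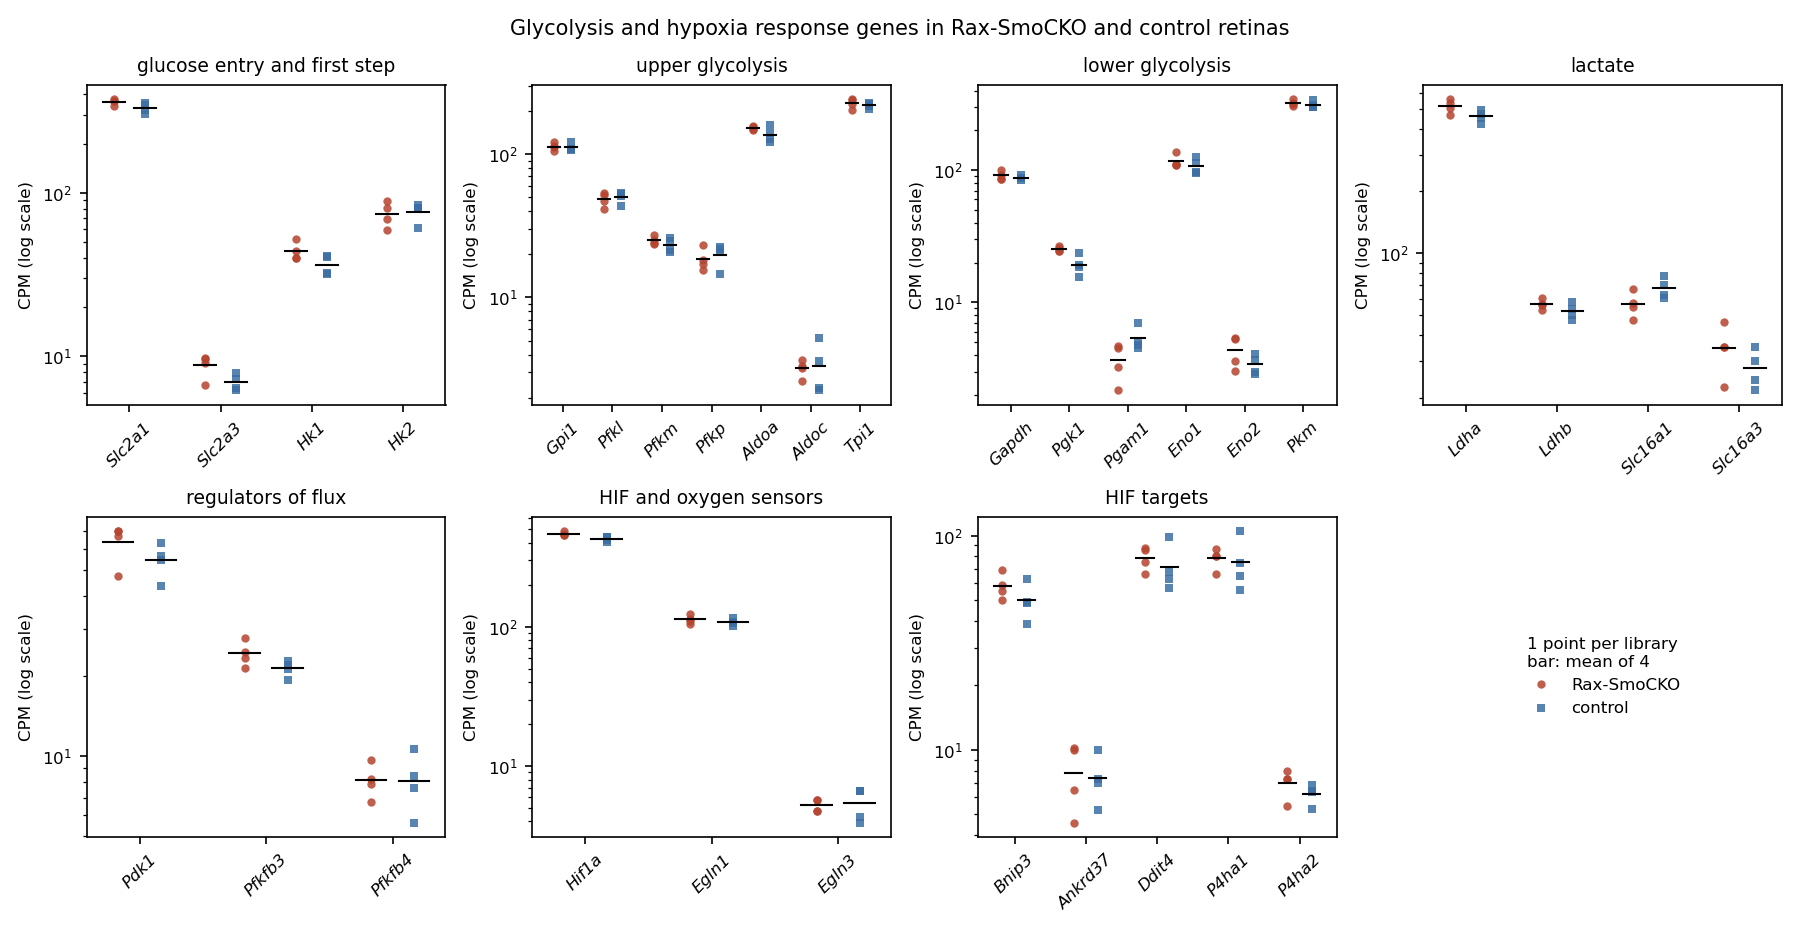
CPM on a log scale of each tested member in each library, with 1 panel for each role, circles for the 4 Rax-SmoCKO libraries, squares for the 4 control libraries and a bar at each mean. Pgk1 and Hif1a are the members in which the circles lie above all squares.

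Genes of glucose entry had a median log2 fold change of 0.19, with 3 of 4 above 0. Slc2a1, the main glucose transporter GLUT1, had 341 to 375 CPM in Rax-SmoCKO and 303 to 356 CPM in control, a log2 fold change of 0.12 (adjusted p = 0.575, edgeR). Slc2a3, the neuronal transporter GLUT3, was low, at 8.78 ± 1.43 CPM in Rax-SmoCKO and 6.95 ± 0.805 CPM in control (SD, n = 4 each). Hk1, the hexokinase of most tissues, had 39.8, 40.2, 44.0 and 52.0 CPM in Rax-SmoCKO replicates 1 to 4, against 31.8, 40.9, 32.2 and 40.4 CPM in control replicates 1 to 4. Rax-SmoCKO replicate 4 stood above the rest and control replicates 1 and 3 below them. For Hk1 the log2 fold change was 0.26 ± 0.12 (SE), with a 95% interval of 0.01 to 0.51 and an adjusted p of 0.512 by edgeR's quasi-likelihood test. Hk1 lies on chromosome 10 of GRCm38 from 62268855 to 62379908 on the minus strand and overlaps Hk1os on the other strand.

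Hk2, the inducible hexokinase, was the more abundant one. It had 81.1, 88.8, 69.0 and 59.0 CPM in Rax-SmoCKO replicates 1 to 4, against 84.6, 80.4, 80.5 and 60.9 CPM in control replicates 1 to 4. The groups cover the same range. Its log2 fold change was -0.03 ± 0.13 (SE), with a 95% interval of -0.30 to 0.24 (adjusted p = 0.964, edgeR). Hk2 made up 62.5 ± 7.08% of the Hk1 and Hk2 counts in Rax-SmoCKO and 67.6 ± 5.72% in control (SD, n = 4 each), and these shares overlap.

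The upper enzymes stayed closest to 0, with a median log2 fold change of 0.02 and 4 of 7 above 0. Gpi1, the glucose phosphate isomerase, and Tpi1, the triose phosphate isomerase, had log2 fold changes of 0.02 and 0.05. The phosphofructokinase genes, whose enzyme sets the pace of glycolysis, were split, with Pfkm at 0.10, Pfkl at -0.05 and Pfkp at -0.10. Their shares of the summed phosphofructokinase counts overlap between groups, with Pfkl the largest at 52.6 ± 2.53% in Rax-SmoCKO and 53.6 ± 2.61% in control (SD, n = 4 each). Aldoa, the main aldolase, had 153, 147, 149 and 156 CPM in Rax-SmoCKO replicates 1 to 4, against 121, 139, 159 and 127 CPM in control replicates 1 to 4. Rax-SmoCKO libraries lay close together, and control replicate 3 exceeded all of them. The log2 fold change of Aldoa was 0.14 ± 0.08 (SE, adjusted p = 0.618, edgeR), and it was 0.09 without control replicate 1 and 0.22 without control replicate 3.

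Of the lower enzymes, 5 of 6 were above 0, and the median was 0.08. Pgk1, the phosphoglycerate kinase that makes ATP, had the smallest p and the largest positive fold change of all members. It had 24.3, 25.7, 24.5 and 26.7 CPM in Rax-SmoCKO replicates 1 to 4, against 18.6, 23.5, 19.2 and 15.4 CPM in control replicates 1 to 4. All Rax-SmoCKO libraries lay above all controls, although control replicate 2 came close to the lowest of them. For Pgk1 the log2 fold change was 0.39 ± 0.13 (SE), or 31.1% higher, with a 95% interval of 0.10 to 0.68 (adjusted p = 0.384, edgeR). Pgk1 is on the X chromosome of GRCm38, from 106187100 to 106203699. Its level was 25.7 and 24.5 CPM in replicates 2 and 3, which hold Y-linked counts, and 24.3 and 26.7 CPM in the other mutant libraries. Over the alternatives the adjusted p of Pgk1 ran from 0.232, without control replicate 2, to 0.610.

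Gapdh, Eno1 and Pkm, which encode glyceraldehyde phosphate dehydrogenase, the main enolase and pyruvate kinase, had log2 fold changes of 0.06, 0.11 and 0.04. Eno2, the neuronal enolase, had 4.33 ± 1.21 CPM in Rax-SmoCKO and 3.39 ± 0.580 CPM in control (SD, n = 4 each). Pgam1 had 4.53, 2.16, 3.24 and 4.67 CPM in Rax-SmoCKO replicates 1 to 4, against 6.96, 4.52, 5.11 and 4.77 CPM in control replicates 1 to 4. Rax-SmoCKO replicate 2 was the lowest, and the groups overlap. Its log2 fold change was -0.56 ± 0.29 (SE), with a 95% interval of -1.19 to 0.08 (adjusted p = 0.581, edgeR).

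Several glycolytic genes have copies elsewhere in the genome, and no source used here says how reads that fit more than 1 place were counted. In GENCODE M21, the last 300 bases of 9 of the 33 members matched other annotated genes at 95% identity or more over at least 75 bases. Gapdh matched 132 such genes, which held 24.2% of their joint counts. Eno1b, a near-identical copy of Eno1, held 50.5% of the counts of the pair. Eno1 and Eno1b together had 236 ± 15.6 CPM in Rax-SmoCKO and 216 ± 25.1 CPM in control (SD, n = 4 each), and the groups overlap. The values of Gapdh and Eno1 are therefore uncertain, and for Ldhb, whose match held 9.32%, less so. For the other 6 members with a match, these genes held at most 1.97% of the joint counts, and for 24 members there was none. Pgk1 and Pgam1, both without a match, averaged 19.2 and 5.34 CPM in control, against 313 CPM for Pkm and 219 CPM for Tpi1. Whether reads from their 3′ ends were fully counted was not tested.

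Among the lactate genes, both directions appeared. Ldha, the lactate dehydrogenase subunit favoured in lactate production, had 538, 469, 510 and 561 CPM in Rax-SmoCKO replicates 1 to 4, against 455, 424, 498 and 474 CPM in control replicates 1 to 4. Replicate 2 was the lowest library of each group, and Rax-SmoCKO replicate 2 lay inside the control range. For Ldha the log2 fold change was 0.17 ± 0.07 (SE), or 12.2% higher, with a 95% interval of 0.02 to 0.31 (adjusted p = 0.457, edgeR). Ldhb, the other subunit, had a log2 fold change of 0.11 and made up 9.89 ± 1.08% of the lactate dehydrogenase counts in Rax-SmoCKO and 10.2 ± 0.521% in control (SD, n = 4 each).

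Slc16a1, the monocarboxylate transporter MCT1, was the only member lower at an unadjusted p under 0.05. It had 55.1, 67.2, 57.2 and 47.3 CPM in Rax-SmoCKO replicates 1 to 4, against 77.9, 70.4, 61.1 and 63.2 CPM in control replicates 1 to 4. Rax-SmoCKO replicate 2 lay among the controls and the other Rax-SmoCKO libraries below them. For Slc16a1 the log2 fold change was -0.25 ± 0.11 (SE), with a 95% interval of -0.48 to -0.02 (adjusted p = 0.491, edgeR). Slc16a3 encodes MCT4, the transporter of cells that export lactate, and is a known HIF1 target. It had 35.1, 22.5, 35.3 and 46.7 CPM in Rax-SmoCKO replicates 1 to 4, against 24.2, 21.6, 35.3 and 30.0 CPM in control replicates 1 to 4. Its log2 fold change of 0.30 had an interval of -0.13 to 0.74, and replicate 2 was again the lowest in both groups. The share of Slc16a3 in the counts of both transporters was 37.9 ± 10.1% in Rax-SmoCKO and 29.0 ± 6.49% in control (SD, n = 4 each), and the groups overlap.

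Regulators of flux gave a median of 0.19, with 2 of 3 above 0. Pdk1, the kinase that inhibits pyruvate dehydrogenase in mitochondria and a HIF1 target, had 67.3, 47.5, 70.1 and 70.0 CPM in Rax-SmoCKO replicates 1 to 4, against 56.7, 43.5, 63.1 and 54.7 CPM in control replicates 1 to 4. Within each group replicate 2 was the lowest, and the other Rax-SmoCKO libraries all exceeded the other controls. For Pdk1 the log2 fold change was 0.22 ± 0.14 (SE, adjusted p = 0.640, edgeR), and it was 0.12 without control replicate 2 and 0.35 without Rax-SmoCKO replicate 2. Replicate 2 had the highest lens sum of each group, though at 16752 CPM in control and only 400 CPM in Rax-SmoCKO. With replicate 2 of both groups left out, 7 members had an unadjusted p under 0.05 by edgeR. The smallest adjusted p was then 0.263, for Pgk1. Pfkfb3 and Pfkfb4 make and break the fructose bisphosphate signal that drives phosphofructokinase, and had log2 fold changes of 0.19 and -0.01.

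**Figure D3:**
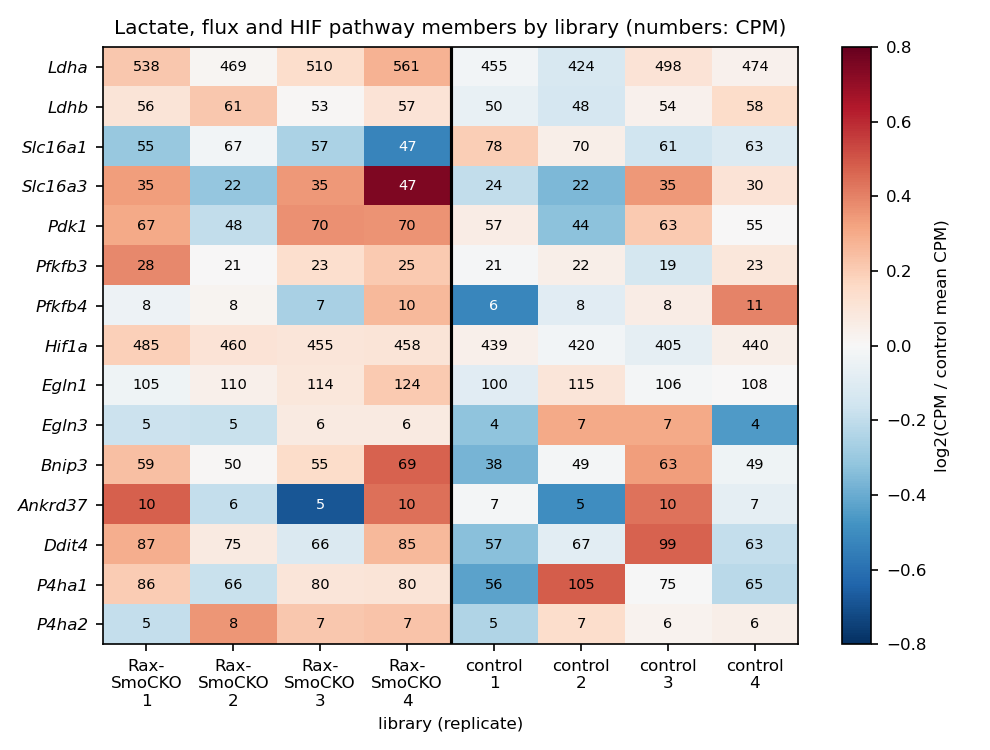
Heat map of the lactate, flux and HIF pathway members in each library, Rax-SmoCKO replicates 1 to 4 on the left and control replicates 1 to 4 on the right. Colour is log2 of CPM over the control mean and the printed numbers are CPM. Hif1a is above the control mean in all 4 Rax-SmoCKO libraries, while Pdk1 and Slc16a3 are at their lowest in replicate 2 of both groups.

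Hif1a, which encodes the oxygen-sensitive subunit of HIF1, was the second most abundant member. It had 485, 460, 455 and 458 CPM in Rax-SmoCKO replicates 1 to 4, against 439, 420, 405 and 440 CPM in control replicates 1 to 4. The groups did not overlap. The log2 fold change was small, at 0.13 ± 0.05 (SE), or 9.13% higher, with a 95% interval of 0.02 to 0.23 (adjusted p = 0.456, edgeR). The gene lies on chromosome 12 from 73901375 to 73947530 and overlaps Gm15283 on the other strand and Gm49321 on its own. No source used here says whether reads were counted by strand. HIF1 activity is set mainly by the stability of the protein, which these counts do not measure. Egln1 and Egln3 encode prolyl hydroxylases that mark it for destruction, and Egln3 is itself a HIF target. Their log2 fold changes were 0.08 and -0.07.

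Bnip3, Ankrd37, Ddit4, P4ha1 and P4ha2, grouped here as HIF targets apart from the oxygen sensors, had log2 fold changes above 0, with a median of 0.13, but each overlapped between groups and none had an unadjusted p under 0.05. Bnip3, a gene of mitophagy, had 58.9, 50.1, 55.0 and 69.0 CPM in Rax-SmoCKO replicates 1 to 4, against 38.5, 49.2, 62.9 and 48.6 CPM in control replicates 1 to 4. Control replicate 3 lay above all but 1 Rax-SmoCKO library. Its log2 fold change was 0.21 ± 0.13 (SE, adjusted p = 0.654, edgeR), and it was 0.11 without control replicate 1, 0.13 without Rax-SmoCKO replicate 4 and 0.34 without control replicate 3. Ddit4, an inhibitor of mTORC1, and P4ha1, a collagen prolyl hydroxylase, had the widest control ranges of these targets, in CPM. Ddit4 had 65.8 to 87.3 CPM in Rax-SmoCKO and 56.7 to 98.9 CPM in control, with control replicate 3 at the top. P4ha1 had 66.3 to 86.4 CPM in Rax-SmoCKO and 55.7 to 105 CPM in control, with control replicate 2 at the top. Summed over the 6 targets, the control range of 164 to 254 CPM held the whole Rax-SmoCKO range of 206 to 252 CPM.

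Other genes of both pathways were taken from lists by function, made with earlier results of these data known. Of 35 further genes of glycolysis and pyruvate use, 22 were tested, 0 passed and 13 were above 0, with a median of 0.03. At an unadjusted p under 0.05, 0 were higher and 1 was lower, against 4.80% and 4.68% of all genes. That gene was Pdk3, another pyruvate dehydrogenase kinase on the X chromosome, with 59.7, 61.3, 55.0 and 55.0 CPM in Rax-SmoCKO replicates 1 to 4, against 65.0, 63.7, 65.2 and 63.7 CPM in control replicates 1 to 4. All Rax-SmoCKO libraries lay below all controls. Its log2 fold change was -0.15 ± 0.07 (SE, adjusted p = 0.495, edgeR). Mpc2, of the mitochondrial pyruvate carrier, and Bpgm, which makes bisphosphoglycerate in red cells, had log2 fold changes of 0.13 and 0.10. That of Mpc2 was 0.08 without control replicate 3 and 0.06 with both libraries with Y-linked counts left out.

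Of 41 further symbols listed for the hypoxia response, 40 were in the table, all but Ero1l, and 37 were tested. None passed (0 in either direction by edgeR), 26 were above 0, against 49.6% of all genes, and the median was 0.09. At an unadjusted p under 0.05, 5 were higher and 0 were lower, against 4.80% and 4.68% of all genes, and in 2 of them Rax-SmoCKO lay wholly above control, against 2.66%. Ndufa4l2, a HIF1 target that lowers the activity of respiratory complex I, had 11, 13.0, 13.8 and 20.3 CPM in Rax-SmoCKO replicates 1 to 4, against 9.62, 6.42, 5.88 and 7.02 CPM in control replicates 1 to 4. All Rax-SmoCKO libraries lay above all controls, and replicate 4 was the highest. For Ndufa4l2 the log2 fold change was 1.00 ± 0.23 (SE), with a 95% interval of 0.50 to 1.5 (adjusted p = 0.172, edgeR). The gene overlaps Shmt2 on the other strand.

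Ccng2, a cyclin whose gene HIF1 and FoxO factors turn on and which is known for slowing the cell cycle, had 136, 120, 128 and 150 CPM in Rax-SmoCKO replicates 1 to 4, against 111, 98.7, 103 and 106 CPM in control replicates 1 to 4. The groups did not overlap. The log2 fold change was 0.35 ± 0.08 (SE), with a 95% interval of 0.18 to 0.51 (adjusted p = 0.154, edgeR). DESeq2's Wald test, with an adjusted p of 0.0255, called it. Rora, a nuclear receptor gene that HIF1 induces, had 128, 85.7, 118 and 149 CPM in Rax-SmoCKO replicates 1 to 4, against 92.5, 73.5, 96.9 and 85.3 CPM in control replicates 1 to 4. Replicate 2 was the lowest in each group, and only Rax-SmoCKO replicate 2 lay within the control range. Its log2 fold change of 0.46 ± 0.14 (SE) had an adjusted p of 0.331, and of 0.0497 without Rax-SmoCKO replicate 2, by edgeR's quasi-likelihood test. Ndrg1, a stress gene induced by HIF1, and Cited2, a feedback inhibitor that competes with HIF1 for its coactivators, completed the 5 with log2 fold changes of 0.35 and 0.17.

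**Figure D4:**
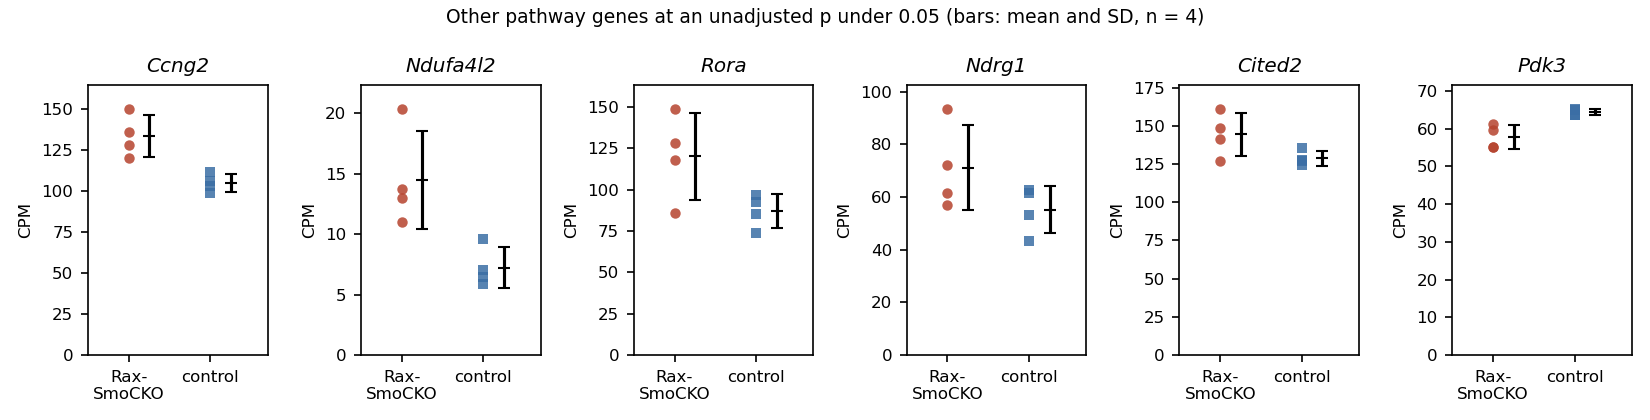
CPM per library of the 6 further pathway genes at an unadjusted p under 0.05, Rax-SmoCKO left and control right, with mean and SD beside the points. Ccng2 and Ndufa4l2 lie above all controls and Pdk3 below them, while Rora, Ndrg1 and Cited2 overlap.

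The other alpha subunits of HIF were low. Epas1, for HIF2 alpha, had 5.25, 17.3, 8.63 and 2.33 CPM in Rax-SmoCKO replicates 1 to 4, against 2.65, 6.66, 3.07 and 6.46 CPM in control replicates 1 to 4. Rax-SmoCKO replicate 2 stood out, and it was also the library with the highest endothelial sum, 296 CPM. Hif3a had 5.75 ± 1.30 CPM in Rax-SmoCKO and 3.77 ± 1.24 CPM in control (SD, n = 4 each). Arnt, the beta subunit, and Vhl, the ubiquitin ligase subunit that binds hydroxylated HIF, had log2 fold changes of 0.05 and 0.0035.

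Sums over markers of other cell states also moved with the groups. Over 8 retinal ganglion cell markers the sum was 4313, 3835, 4211 and 5561 CPM in Rax-SmoCKO replicates 1 to 4, against 3373, 3399, 3434 and 3997 CPM in control replicates 1 to 4. Rax-SmoCKO replicate 4, the highest here, was also the highest library for Ldha, Hk1, Pgk1, Slc16a3, Bnip3, Ndufa4l2, Ccng2 and Rora, and the lowest for Slc16a1. Aldoa was highest in control replicate 3 and Pdk1 in Rax-SmoCKO replicate 3. Among the controls, replicate 4 had the highest ganglion cell sum and was the highest for none of the genes just named. Its Pgk1, at 15.4 CPM, was the lowest of all libraries. Hif1a was highest in Rax-SmoCKO replicate 1, at 485 CPM, and among the controls in replicate 4, at 440 CPM. Over 8 cycling cell genes the sum was 4986 to 5322 CPM in Rax-SmoCKO and 5998 to 6757 CPM in control. The largest part was Ccnd1, with means of 2244 CPM in Rax-SmoCKO and 3177 CPM in control (adjusted p = 0.0116, edgeR). Cdk1, Mcm2 and Mcm3 also lay wholly below control in Rax-SmoCKO, whereas Mki67, Top2a, Ccnb1 and Pcna overlapped between groups. Over 9 genes induced by handling, mostly Jun, the sum was 190.2 to 259 CPM in Rax-SmoCKO and 165 to 183 CPM in control. Jun, with means of 149 CPM in Rax-SmoCKO and 123 CPM in control, was the only one of the 9 without overlap between groups. The cycling and handling sums did not overlap between groups. Tissues around the retina varied more. Over 8 pigment epithelium markers, of which Rpe65 was at 0 throughout, the sum was 130 to 743 CPM in Rax-SmoCKO and 108 to 358 CPM in control, with Rax-SmoCKO replicate 3 at the top. Over 8 periocular mesenchyme markers it was 47.7 to 317 CPM in Rax-SmoCKO and 48.8 to 145 CPM in control, and over 8 endothelial markers, mostly Kdr, 198 to 296 CPM in Rax-SmoCKO and 198 to 214 CPM in control, both with Rax-SmoCKO replicate 2 at the top. The part of these cell states and tissues in the values of Pgk1, Hif1a, Ldha, Slc16a1, Hk1 and the further pathway genes was not tested.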

How the data were processed

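Retinal RNA of 4 Rax-SmoCKO and 4 control samples was profiled by 3′-Tag-Seq. After trimming and alignment to the mouse genome, the authors deposited whole-number counts per Ensembl gene from featureCounts, with the authors' mean count of each group, which was not used. Tools in the submitters' processing notes are STAR 2.7.0e and limma, and GRCm38, mm10 and GRCh38 are listed as builds. No source used here states the collapsing of molecular identifiers, the strand setting or the handling of multi-mapped reads. Of the 5 Rax-SmoCKO samples in the methods, 4 were analysed here. Totals ran from 3017480 to 4615667. Pairs of replicates differed by more than sampling noise, with a chi-square over degrees of freedom of 2.18 to 8.52. The 525 rows without a symbol held 0.094% of counts. Aldoa has 2 rows, and ENSMUSG00000030695 was used. GENCODE M21 (GRCm38) held 51884 of 57180 identifiers and all 33 members.

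Counts were tested with edgeR 4.0.16 in R 4.3.3 (TMM, quasi-likelihood, group alone, at least 5 counts in at least 4 libraries, Benjamini-Hochberg over 14730 genes, adjusted p under 0.05). With the study's further limit of an absolute log2 fold change over 1, 3 genes were higher and 3 lower. SE is the absolute log2 fold change over the square root of F. Alternatives were DESeq2 1.42.0 (size factors, Wald test), library size alone, limma-voom (limma 3.58.1), a minimum of 10 counts, no filter, a replicate block and leaving out libraries. The count of members above 0 and the sum of Eno1 and Eno1b were added after the data were seen. Copies were found with blastn 2.17.0, and pictures drawn with matplotlib 3.10.9. Genes given in full are members with an unadjusted p under 0.05, the member with the smallest p in each role that had none, and up to 3 other genes a list with the smallest p. Members and lists were chosen with earlier results of these data known. Hif3a, Epas1, Arnt, Vhl and members named by role were chosen after their values were seen.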

Additional observations from a re-analysis of the deposited data

Results flagged for a closer look

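In 5 of the 104 groups of 4 values examined (members, their sums by role and isozyme shares), 1 library lay far from the other 3. Chance flags about 1 in 20 groups, or 5.2 here. Pdk1 was at 47.5 CPM in Rax-SmoCKO replicate 2, against 67.3 to 70.1 CPM in the other Rax-SmoCKO libraries. In the same library the summed regulators of flux were at 77.1 CPM, against 100.3 to 104 CPM, and the Ldhb share of lactate dehydrogenase counts was 11.5%, against 9.18 to 9.48%. Eno1 was at 136.0 CPM in Rax-SmoCKO replicate 4, against 109.9 to 112 CPM. Gpi1 was at 120.4 CPM in control replicate 3, against 108 to 109 CPM in the other control libraries.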

How the results depend on the processing

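Under each of the 17 alternatives, 0 members were called higher and 0 lower, with the smallest adjusted p of a member between 0.232 and 0.610 (DESeq2 gave none for 9 members), 24 to 26 tested members above 0, and a median log2 fold change of 0.07 to 0.13. Leaving out each library in turn gave this same range of the median, 5 to 8 genes higher over all genes (8 without Rax-SmoCKO replicate 2 and 8 without Rax-SmoCKO replicate 3) and 7 to 13 lower. Genes called over the whole table, 5 higher and 9 lower, came to 26 and 33 with DESeq2's Wald test and to 154 and 135 with no filter. Without both libraries with Y-linked counts 11 were higher. Library size alone gave ratios of summed CPM within the spread between replicates of the main ones.

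The labels do not say that a replicate number marks a shared litter or day, and the deviations of same-numbered libraries correlated at 0.098, 0.25, -0.055 and 0.048 for numbers 1 to 4, over 0.1 in 1 of 4 pairs, so the numbers were not taken as pairs. With the replicate block, 18 genes were higher and 20 lower over all genes, and 0 members passed.

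No listed direction was reversed. Of the genes given in full, 3 crossed the threshold somewhere. The adjusted p of Ccng2 was 0.0255 with DESeq2's Wald test and 0.00794 with no filter, that of Ndufa4l2 was 0.00497 with no filter, and that of Rora was 0.000877 with no filter, 0.0478 with both Y-linked libraries left out and 0.0497 without Rax-SmoCKO replicate 2. The cause was not tested. The 4 widest intervals were those of Aldoc, Pgam1, Eno2 and Ankrd37, which all averaged under 10 CPM.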
